A study of Caenorhabditis elegans with 2 samples.

Results

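The genes of the ubiquitin and SUMO conjugation pathways were examined for binding of HSF-1, the transcription factor of the heat shock response, in the nematode Caenorhabditis elegans. The 8 genes described here were chosen by name as the core of both pathways, out of 19973 protein-coding genes on the nuclear chromosomes. From the ubiquitin branch 3 genes are described, ubq-1, ubq-2 and uba-1, and from the SUMO branch 5, smo-1, uba-2, aos-1, ubc-9 and gei-17. Every peak with its summit from 1000 bp upstream to 200 bp downstream of an annotated transcript start of a gene, called the promoter window here, was taken from all deposited peak lists.

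The study held 1 group of 2 biological replicates, made by chromatin immunoprecipitation and sequencing (ChIP-seq) from strain RW12254. In this strain the hsf-1 gene carries TY1, EGFP and 3xFLAG tags, inserted with CRISPR, and an anti-GFP antibody pulled down the fusion. The worms were whole young adults of 63 hours, synchronised by bleaching and starvation at the L1 larval stage, and the labels name no heat treatment. Chromatin was sonicated to a size range of 200 to 800, per the labels, and a control experiment that the labels name was not analysed here. Whole worms mix all tissues, all material came from 1 tagged strain, and peak lists hold no expression, so neither the tissue of a peak nor the level of any transcript could be read.

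Ubiquitin and its relative SUMO are small proteins that are joined to other proteins through a relay of an activating enzyme (E1), a conjugating enzyme (E2) and usually a ligase (E3). Ubiquitin chains mark many proteins for the proteasome, which removes damaged proteins under stress, whereas SUMO mostly alters the activity, partners or location of its targets. HSF-1 binds the heat shock element, an array of short units in alternating orientation, at chaperone genes and at other genes of protein quality control.

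Heat shock elements were searched as 3 units, TTC, GAA and TTC in that order, with any 2 bases between neighbouring units, or as the reverse complement of that array, on both strands. An element spans 13 bases, of which 9 are fixed, and it was called perfect when all 9 matched. The 3 stretches below are shown because they hold the elements at the strongest ubiquitin and SUMO gene peaks. Each runs 130 bp to either side of a summit in the RefSeq reference genome of C. elegans (WBcel235, the same assembly as ce11), 5′ to 3′ on the strand of the gene. Capitals mark the matching fixed bases of every element with at most 1 mismatch.
ubq-1, 963 bp upstream, chrIII:5939161-5939421, plus strand: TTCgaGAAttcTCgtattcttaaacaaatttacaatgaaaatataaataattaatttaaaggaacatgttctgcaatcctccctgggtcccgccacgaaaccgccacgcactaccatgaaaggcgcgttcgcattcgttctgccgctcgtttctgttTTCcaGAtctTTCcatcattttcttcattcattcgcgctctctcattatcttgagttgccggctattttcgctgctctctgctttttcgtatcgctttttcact
uba-1, 226 bp upstream, chrIV:9995041-9995301, minus strand: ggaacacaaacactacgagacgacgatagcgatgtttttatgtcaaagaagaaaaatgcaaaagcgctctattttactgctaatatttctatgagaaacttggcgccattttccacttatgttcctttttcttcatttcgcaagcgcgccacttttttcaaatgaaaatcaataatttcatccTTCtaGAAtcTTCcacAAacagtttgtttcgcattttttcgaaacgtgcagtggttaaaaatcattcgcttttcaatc
ubc-9, 255 bp upstream, chrIV:4650659-4650919, plus strand: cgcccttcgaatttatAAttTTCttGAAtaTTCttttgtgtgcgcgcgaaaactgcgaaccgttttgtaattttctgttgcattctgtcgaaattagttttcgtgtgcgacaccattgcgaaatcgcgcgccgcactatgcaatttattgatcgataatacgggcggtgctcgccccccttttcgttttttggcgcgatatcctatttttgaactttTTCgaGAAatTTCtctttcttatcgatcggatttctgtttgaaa
The perfect elements by themselves were:
uba-1, chrIV:9995106-9995118: TTCtaGAAtcTTC
ubc-9, upstream of the summit, chrIV:4650679-4650691: TTCttGAAtaTTC
ubc-9, downstream of the summit, chrIV:4650876-4650888: TTCgaGAAatTTC
The element nearest the ubq-1 summit had 1 mismatch, shown as a lower-case letter within a unit:
ubq-1, chrIII:5939318-5939330: TTCcaGAtctTTC
The uba-1 array went on for a further unit, so that 4 units in a row held 1 mismatch among their 12 fixed bases. The upstream array of ubc-9 likewise spanned 4 units with 1 mismatch.

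A gene was called bound when a summit of the pooled thresholded list, made from both replicates, lay in its promoter window. In that list 4 of the 8 genes were bound, against 1524 of 19973 protein-coding genes, or 7.63% (95% Wilson interval 7.27% to 8.01%). The bound genes were ubq-1 and uba-1, 2 of the 3 described genes of the ubiquitin branch, and smo-1 and ubc-9, 2 of the 5 of the SUMO branch. The conservative list bound the same 4 genes at a background of 7.11%. The list of replicate 1 bound these 4 too, at a background of 3.83%, and so did the list of replicate 2, at 5.29%. The genes were chosen with earlier results of these data known, so the counts describe the branches and carry no test.

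The strength of each peak is the peak caller's own signal, as the authors deposited it, and it is not scaled between lists. Each ranked list, which holds peaks far below the threshold too, also gives an irreproducible discovery rate (IDR), a measure of how reproducibly a peak is ranked. Values at or under 0.01 entered the thresholded lists. The lowest IDR in every list was 1e-05, so peaks at that floor cannot be told apart by it. All 8 genes had at least 1 ranked pooled peak in the promoter window, while 28.8% of protein-coding genes had none. Over all genes the strongest ranked pooled signal had a median of 26.2, a 95th percentile of 89.9 and a 99th percentile of 263. Genes without a ranked peak entered these values, and the shares of genes below, with a signal of 0.

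**Figure D1:**
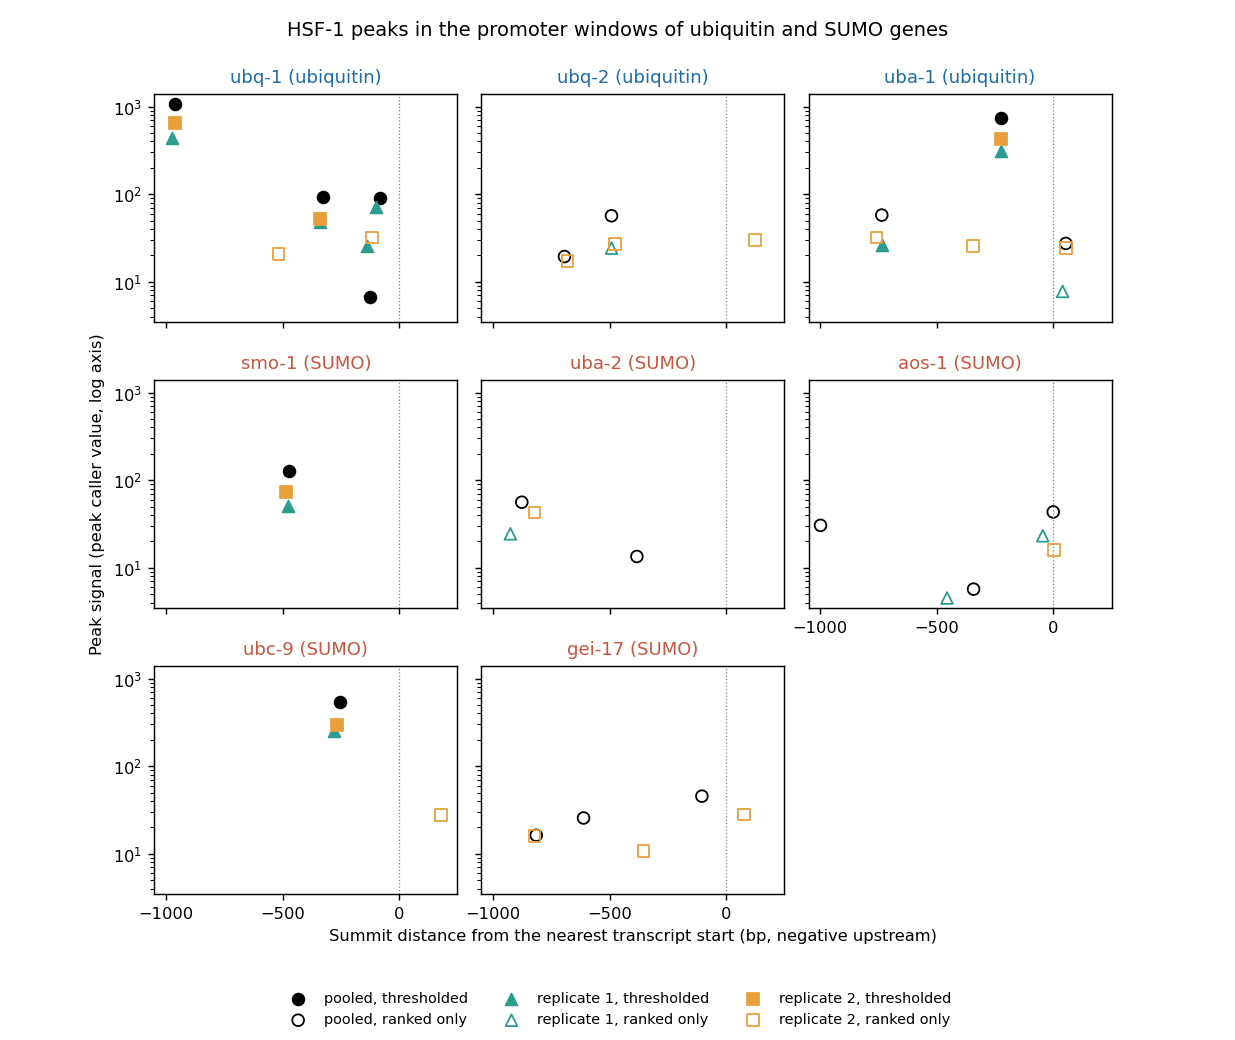
Signal of each ranked peak (log axis) against the distance of its summit from the nearest transcript start in bp, for the 8 genes; filled symbols are thresholded peaks, open symbols ranked peaks outside the thresholded list, and symbol shape gives the pooled list or the replicate list. The peaks of ubq-1, uba-1 and ubc-9 reach pooled signals of 1071, 748 and 547, far above every ranked peak of ubq-2, uba-2, aos-1 and gei-17.

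The modifier gene ubq-1 encodes polyubiquitin, a head-to-tail chain of ubiquitin copies that is cut into single molecules. It lies on the plus strand of chromosome III with 2 annotated transcript starts, at 5940254 and 5940986, and its window held 4 pooled peaks. The strongest, at 5939151 to 5939419, had its summit 963 bp upstream of the first start, near the far edge of the window, in intergenic sequence outside the window of any other gene. Its signal was 438 in replicate 1, 643 in replicate 2 and 1071 in the pooled list, with an IDR of 1e-05 in all 3 lists. It ranked 46 of 2935 pooled peaks, and only 32 protein-coding genes had a stronger ranked promoter peak. No perfect element lay in the promoter window of ubq-1, and the elements at this peak, 33 bp downstream and 124 bp upstream of the summit, each had 1 mismatch.

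The 3 other ubq-1 peaks were weaker by far. With a promoter window of 500 bp upstream to 100 bp downstream, an alternative chosen after seeing the data, the strongest ubq-1 signal would be 93.6 in place of 1071, below those of uba-1, ubc-9 and smo-1. A peak 326 bp upstream of the second start, within an intron of ubq-1, reached 47.7 in replicate 1, 51.4 in replicate 2 and 93.6 when pooled, and was in all thresholded lists. It had no element within 100 bp of the summit. The peak 80 bp upstream of the first start had a pooled signal of 90.4 at an IDR of 0.00619, and differed between replicates, with 70.6 in replicate 1 and 32.0 at an IDR of 0.477 in replicate 2. That peak was thus in the replicate 1 list and in neither the replicate 2 nor the conservative list. It carried an element with 1 mismatch 18 bp upstream of its summit. The last peak, 126 bp upstream of the second start, reached 25.7 in replicate 1 and 6.62 when pooled, and its nearest replicate 2 peak was the same one that matched the peak at 326 bp. It ranked 2901 of 2935 pooled peaks and was not in the conservative list, with an IDR of 0.0134 in that ranking. Its interval overlapped that of the peak at 326 bp. An element with 1 mismatch lay 51 bp downstream of the summit of this last peak.

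The second modifier gene, ubq-2, encodes ubiquitin fused to a ribosomal protein and lies on the minus strand of chromosome III. It was not bound. Its strongest ranked pooled peak, 492 bp upstream, had a signal of 56.7 at an IDR of 0.0543, and the peaks there had 24.2 in replicate 1 and 27.1 in replicate 2. A further replicate 2 peak 125 bp downstream of the start reached 29.8. The pooled value was above that of 87.6% of protein-coding genes, with genes that had no ranked peak counted as lower. None of these ubq-2 peaks passed the threshold. The nearest thresholded pooled summit lay 707 bp downstream of the start, beyond the window, with a signal of 133. An element with 1 mismatch 218 bp upstream of the start had no ranked pooled peak over it.

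The ubiquitin-activating enzyme gene uba-1, the E1 of the branch, was bound at a single thresholded pooled peak at 9995007 to 9995298 of chromosome IV, where the gene lies on the minus strand, in intergenic sequence. Its summit lay 226 bp upstream of the nearest of 4 annotated starts, at base 9995171 in the pooled list and in both replicate lists. Replicate 1 gave a signal of 310, replicate 2 gave 426 and the pooled list 748, with an IDR of 1e-05 in each. The peak ranked 94 of 2935, and 62 protein-coding genes had a stronger one. The perfect element lay 59 bp downstream of the summit, with an overlapping element of 1 mismatch at 64 bp. With its 4 starts the uba-1 window spanned 2442 bp, against 1201 bp for a gene with 1 start, such as ubc-9. A second perfect element of the uba-1 window, at 9994188 to 9994200, lay under a weak peak with a pooled signal of 57.7 at an IDR of 0.605. This element was 711 bp downstream of the nearest start, and was in the window only through the most downstream start, at 9993349. In replicate 1 that weak peak had a signal of 26.5 at an IDR of 0.00645 and was in the thresholded list, and in replicate 2 it had 32.1 at an IDR of 0.729.

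In the SUMO branch, smo-1 encodes the single SUMO protein of the worm. Its promoter window held 1 ranked pooled peak, at 1340055 to 1340358 of chromosome I, 471 bp upstream of the start in intergenic sequence. Its signal was 51.1 in replicate 1, 73.5 in replicate 2 and 126 when pooled, and the IDR was 0.00433, 0.000557 and 0.000402 in that order. The peak was in all 4 thresholded lists and ranked 904 of 2935. Its signal was above that of 96.8% of protein-coding genes, with genes that had no ranked peak counted as lower. No element with at most 1 mismatch lay anywhere in the smo-1 window, which made smo-1 the exception among the 8 genes. Within 100 bp of the summit the closest array had 2 mismatches.

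The SUMO-activating enzyme is a pair of subunits, UBA-2 and AOS-1, and neither gene was bound. The strongest ranked pooled peak of uba-2 lay 877 bp upstream with a signal of 56.0, at an IDR of 0.132 in the pooled and 0.0233 in the conservative ranking. Its replicate signals were 24.4 in replicate 1 and 42.8 in replicate 2. That of aos-1 lay at the transcript start itself with a signal of 43.4 at an IDR of 0.579, and the replicates gave 23.2 and 15.8. The nearest thresholded pooled summits were 9526 bp from uba-2 and 8511 bp from aos-1. The E1 of the ubiquitin branch thus had a pooled signal of 748, and the E1 subunits of the SUMO branch had 56.0 and 43.4, without a thresholded peak.

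The E2 gene ubc-9, which encodes the conjugating enzyme for SUMO, had the strongest peak of its branch. The peak lay at 4650604 to 4650938 of chromosome IV, in intergenic sequence, with its summit 255 bp upstream of the start. It had 252 in replicate 1, 296 in replicate 2 and 547 when both were pooled, with an IDR of 1e-05 in each list. It ranked 135 of 2935, and 82 protein-coding genes had a stronger one. One perfect element lay 104 bp upstream and another 93 bp downstream of the summit, so the summit fell between them.

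The ligase gene gei-17, a PIAS-type E3 for SUMO, has 8 annotated starts and was not bound. Its strongest ranked pooled peak, 104 bp upstream, had a signal of 45.4 at an IDR of 0.594. There was no ranked peak in replicate 1, and the strongest in replicate 2 had 28.1 at an IDR of 0.749. The nearest thresholded pooled summit was 4914 bp from a start. Like uba-2, gei-17 had 2 elements with 1 mismatch in its window, none of them under a ranked pooled peak.

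**Figure D2:**
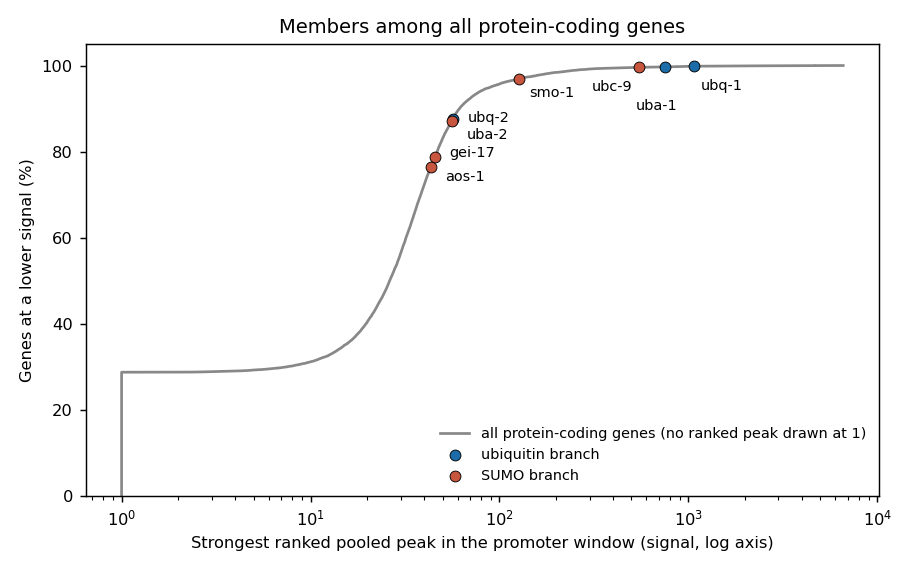
Share of protein-coding genes with a lower signal (vertical axis, percent) against the strongest ranked pooled peak in the promoter window (horizontal log axis); the line is all genes and the points are the 8 genes, coloured by branch. The points of ubq-1, uba-1 and ubc-9 sit at 99.8%, 99.7% and 99.6%, and those of gei-17 and aos-1 at 78.6% and 76.5%. Genes without a ranked peak count as lower.

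The order of the strongest ranked peaks was ubq-1, uba-1, ubc-9, smo-1 in the pooled list and in each replicate, and the replicate ranges of neighbours in that order did not overlap. The range was 438 to 643 for ubq-1, 310 to 426 for uba-1, 252 to 296 for ubc-9 and 51.1 to 73.5 for smo-1. With 1 value per replicate and no scaling between lists these ranges are a description. Below them the order differed between lists. The range of uba-2, 24.4 to 42.8, overlapped that of ubq-2, 24.2 to 29.8, and aos-1 had 15.8 to 23.2. The gene gei-17 had a ranked peak in replicate 2 alone.

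The replicates themselves differed in level. Over the 1310 of 1338 pooled promoter peaks matched in both replicates, the log2 ratio of replicate 2 to replicate 1 had a median of 0.35, and the 5th and 95th percentiles were −0.51 and 1.25. Some neighbouring pooled peaks matched the same replicate peak, and these were kept among the 1310. The strongest pooled peaks of the bound genes had 0.55 for ubq-1, 0.46 for uba-1, 0.52 for smo-1 and 0.23 for ubc-9, all inside the span between those percentiles. The ubq-1 peak at 80 bp, with −1.14, was outside it and was higher in replicate 1. No ratio is given for the ubq-1 peak at 126 bp, which had no replicate 2 peak of its own.

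**Figure D3:**
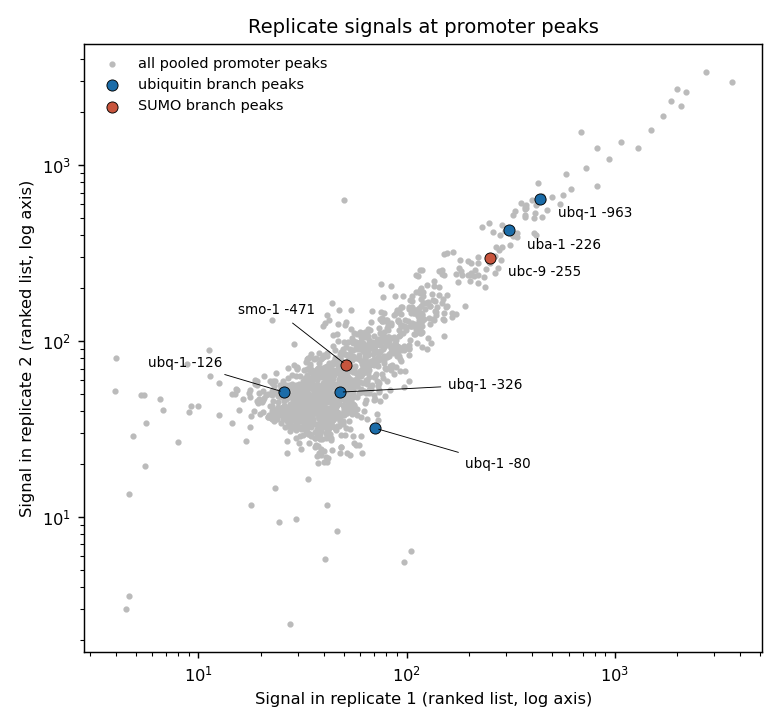
Signal in replicate 2 against signal in replicate 1 from the ranked lists (both log axes) for all matched pooled promoter peaks (grey) and for the peaks of the bound genes, labelled by gene and distance from the start in bp; the point of ubq-1 at 126 bp is drawn with the replicate 2 peak that also matches the one at 326 bp. The peaks of ubq-1 at 963 bp, uba-1 and ubc-9 lie in the upper part of the cloud, and the ubq-1 peak at 80 bp, with 70.6 and 32.0, lies toward its lower right side.

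Of the 4 bound genes, uba-1 and ubc-9 had a perfect element within 100 bp of the summit of their strongest pooled peak, and ubq-1 had one with 1 mismatch. Among all 1338 pooled promoter peaks 128, or 9.57%, had a perfect element within that distance, and among the 200 strongest it was 31.0%. With up to 1 mismatch these shares were 25.8% and 52.0%. In windows of the same length placed at the same distances from the starts of all genes, 1.28% to 1.56% held a perfect element and 16.8% to 17.9% one with up to 1 mismatch. Over whole promoter windows a perfect element occurred in 1855 genes, or 9.29%, of which 270 were bound, and in uba-1 and ubc-9 among the 8 genes. A match with up to 1 mismatch was common, in 68.9% of genes and in 7 of the 8. A match is a match of letters and not a measured site.

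**Figure D4:**
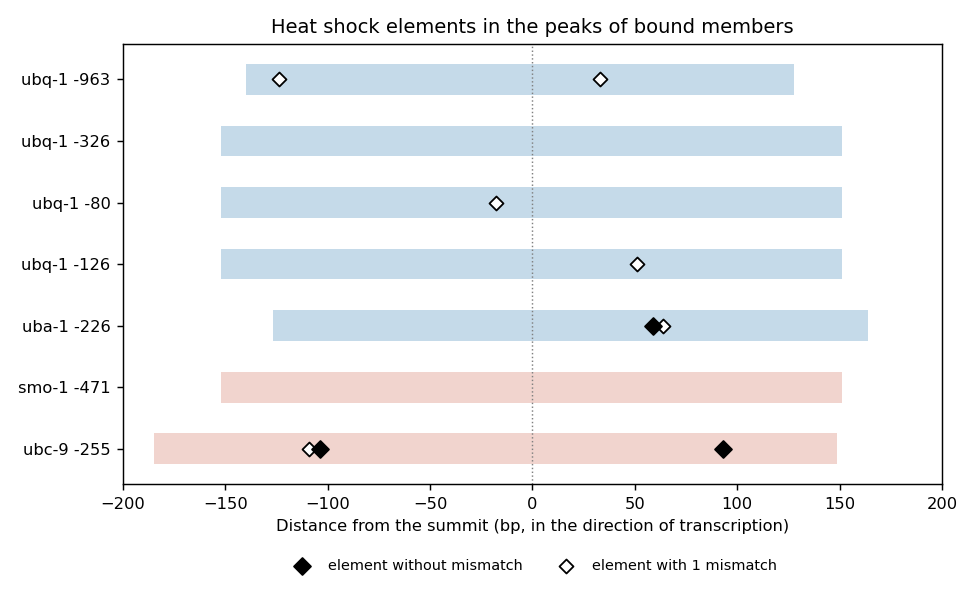
Peaks of the bound genes (bars, pooled intervals) with the positions of heat shock elements relative to the summit in bp, in the direction of transcription; filled diamonds are perfect elements and open diamonds have 1 mismatch. The perfect elements sit 59 bp downstream in uba-1, and 104 bp upstream and 93 bp downstream in ubc-9.

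For the gene with the strongest peak, ubq-1, the genes nearest in the log2 signals of both replicates were bag-1, C23G10.7 and rpn-2. The distances were 0.046 log2 units for bag-1 and 0.054 for the other pair, which share 1 peak. BAG-1 is a co-chaperone of HSP70 and RPN-2 a subunit of the proteasome. The gene nearest to the shared peak was C23G10.7, not rpn-2. The likeness rests on 2 values per gene.

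Of the other genes of the pathways, 11 of 94 were bound, or 11.7% (95% Wilson interval 6.66% to 19.8%), beside 7.63% of all genes. They comprised 5 of 16 further ubiquitin ligases, 3 of 23 further E2 genes and variants, and 1 each of 14 cullin scaffolds and partners, 18 deubiquitinases and 6 genes of the CDC48 segregase. None of 7 genes of other ubiquitin-like modifiers and their E1, 4 SUMO proteases and 6 COP9 signalosome genes was bound. The counts changed with the list used. The list of replicate 1 bound 9 of the 94 genes, the list of replicate 2 bound 11 and the conservative list 13. The backgrounds of these lists were 3.83%, 5.29% and 7.11%. For the CDC48 genes replicate 2 gave 2 and the conservative list 3. The conservative list gave 2 for the cullin list, and it and replicate 1 gave 0 for the deubiquitinases. Among these genes the strongest pooled peak was that of cdc-48.1, which encodes the segregase that extracts ubiquitin-marked proteins, with a signal of 464. The HECT-type ligase genes eel-1, wwp-1 and ubr-5 followed with 385, 314 and 230. The E2 genes ubc-6, ubc-7 and ubc-3 had 220, 168 and 78.0, the ligase gene rfp-1 had 173, cul-4 had 132 and usp-48 had 80.2. None of these other genes reached the signal of ubc-9, the third strongest of the core genes. The peaks of ubr-5, ubc-6, rfp-1 and usp-48 also lay in the windows of F29D10.1, aka-1, R05D3.8 and F30A10.9, in that order. For the rfp-1 and usp-48 peaks the nearest gene was R05D3.8 and F30A10.9, respectively.

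The proteasome receives ubiquitin-marked proteins. Of its 33 subunit genes 6 were bound, or 18.2% (95% Wilson interval 8.61% to 34.4%), beside 7.63% of all genes. Of these rpn-3, at 4697, and rpn-2, at 1049, were the strongest. The rpn-3 peak was shared with the window of the chaperone gene hsp-110, and the rpn-2 peak with C23G10.7. The rpn-9 and pas-1 peaks also lay in the windows of T06D8.9 and rpoa-12, in that order. For the rpn-2 and pas-1 peaks the nearest gene was C23G10.7 and rpoa-12, respectively. The pas-1 peak was in neither replicate list. The median over a list of the strongest ranked pooled signal was 26.2 for all genes. It was 748 for the 3 described genes of the ubiquitin branch, 56.0 for the SUMO branch and 48.6 for the proteasome. The 748 is the value of uba-1 itself, the middle of 3 genes, with ubq-1 above it. In the window of 500 bp upstream to 100 bp downstream, chosen after seeing the data, ubq-1 had 93.6 and uba-1 748. The median of the ubiquitin branch would then be lower.

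**Figure D5:**
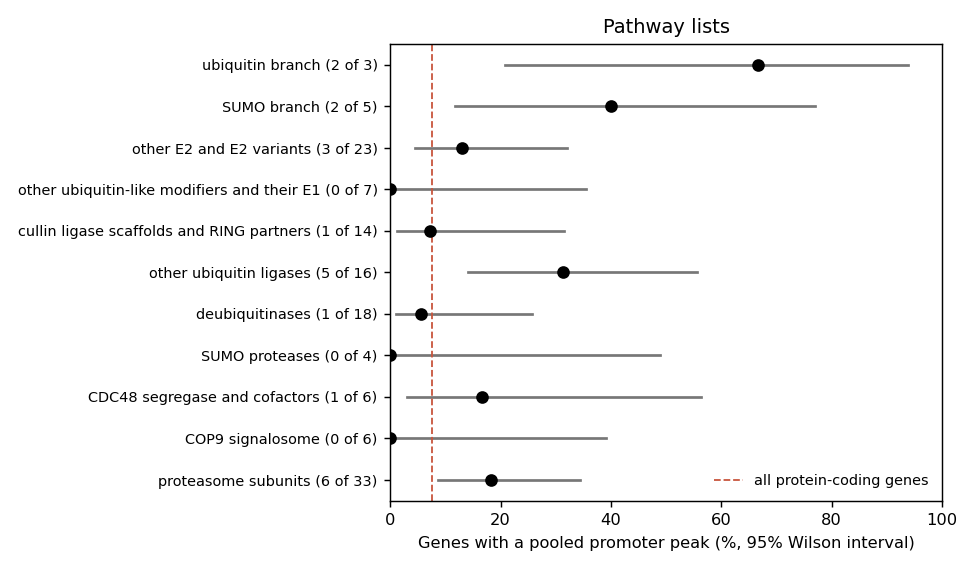
Percent of genes of each list with a pooled promoter peak (points, with 95% Wilson intervals as lines; the number of bound genes of all genes in brackets), and the share over all protein-coding genes as a dashed line at 7.63%. The 3 described genes of the ubiquitin branch stand at 66.7% and the SUMO branch at 40%, with wide intervals that overlap each other. The genes were chosen with earlier results of these data known, so the intervals are no test against the dashed line.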

How the data were processed

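The deposited files were 4 thresholded and 4 ranked peak lists on ce11, for each replicate, the pooled set and the conservative set. The listings do not say which of the ranked tables made from both replicates is the pooled and which the conservative one, so these were told apart by matching their peaks to the thresholded lists. Neither the aligner nor the peak caller is given in the sources used here. No read numbers were at hand, which leaves the depth unknown, and the Wilson intervals cover the counting of genes or peaks only. The signal of a peak is the peak caller's value, as the authors deposited it. The score, which the authors deposited, was not used to rank peaks. The IDR was computed from the −log10 values that the authors deposited in the ranked lists. There were 16 columns with values of unnamed samples, which were not used.

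Transcript starts came from Ensembl release 115 on WBcel235, the same assembly, and sequences from the RefSeq copy of that assembly. Pooled peaks were matched to the ranked list of each replicate by overlap (1 bp or more), taking the closest summit. An element was assigned to a summit when its middle base lay within 100 bp. The computations used Python 3.11.15, numpy 2.4.6, pandas 2.3.3 and matplotlib 3.10.9, and the assignment of peaks and elements was tested on simulated data.

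One further gene of the ubiquitin branch is not reported here and is left out of every count, share and median of that branch. The members and lists were chosen with earlier results of these data known, and no test was run, since there is 1 group. The genes named were the members, every gene sharing a window with a member peak (there was none), and the 3 genes most like ubq-1. Also named were up to the 10 strongest bound genes of the wider lists and the genes that shared their peaks. The proteasome genes named were chosen after their values were seen. Of the wider lists ari-1 and csn-7 had no match in the annotation. The alternatives were each replicate alone, the conservative list, a stronger and a looser threshold, other promoter windows, peak interval in place of summit, the nearest gene, the most upstream start, other element windows and other overlap rules.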

Additional observations from a re-analysis of the deposited data

How the results depend on the processing

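The count of bound core genes stayed at 4, and the genes stayed the same, under all alternatives run. With 1 replicate left out, the number of bound protein-coding genes ranged from 764 to 1057. It was 949 with the stronger part of the pooled list and 2438 with ranked pooled peaks at an IDR of 0.05 or less, which hold fewer and more peaks by construction. With elements counted only within 50 bp of the summit, 0 genes in place of 2 had a perfect element at their strongest pooled peak, and 1 in place of 3 had one with at most 1 mismatch. The smaller window holds fewer elements by construction. Of the main counts recomputed, 47 values stayed within 1.5 times the reported count and 5 did not. Many of these values overlap, since the bound core genes were counted together and by branch in each setting, so they are not separate checks. The signals of single genes changed in 9 of 20 recomputations, in 8 of them where the list of a single replicate replaced the pooled list. The other was ubq-1 in the window of 500 bp upstream to 100 bp downstream, where its strongest signal was 93.6 in place of 1071, since the stronger summit lies outside that window. The promoter windows were applied to these signals after seeing the data. No paired analysis was possible because there is 1 group.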
